A study of Rattus norvegicus with 14 samples.

Results

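The genes described here build and run the mitotic spindle: its motors and crosslinkers, the kinases that start mitosis, the kinetochore and its checkpoint, the ubiquitin machinery that ends metaphase, and the factors that cut the cell apart. They were taken by symbol from a list of 43 such genes, of which 37 were measured among the 13184 genes of the array. That list and the lists of other genes below were chosen with earlier results of these data known. Their counts and shares are therefore only descriptions. Kif4a, Tpx2, Ckap2, Ndc80, Anln and Cep55 were not analysed here. Where several probe sets stood for a gene, the one with the highest mean over all arrays was used. After 48 h of phenylephrine (PE) all 37 genes rose, by a median of 1.19 on the log2 scale, and when JQ1 was present with PE all 37 were lower than without it, by a median of 1.80.

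The cells were neonatal rat ventricular myocytes, heart muscle cells isolated from Sprague-Dawley pups at 2 days of age. They were kept without serum for 48 to 72 h before stimulation. PE (100 µM), an alpha1-adrenergic agonist, makes such cells hypertrophy, and JQ1 is a small molecule that displaces the BET bromodomain proteins from acetylated chromatin. The series asked how JQ1 alters the response to PE. There were 5 groups: JQ1 with PE for 6 h (3 arrays), JQ1 with PE for 48 h (3 arrays), DMSO with PE for 6 h (2 arrays), DMSO with PE for 48 h (3 arrays), and DMSO for 90 min without PE (3 arrays), called unstimulated below. DMSO is the vehicle of JQ1. The treatment protocol has JQ1 or DMSO given for 6 h before PE, whereas the design text puts PE first, so which was added first cannot be told. The times given here are those of PE, or the 90 min on the label of the unstimulated group. By the treatment protocol the exposure to JQ1 or DMSO was 6 h longer. The JQ1 concentration used is not given in the sources used here. All cultures had passed a pre-plating step of 1.5 h, meant to remove cells that are not myocytes. Unstimulated cells also differ from the PE groups in time in culture, so PE and time cannot be told apart in any comparison with them. The same holds between 6 h and 48 h of PE, because none of the 5 groups was kept for 48 h without PE. No group had JQ1 without PE either, so a blocked PE response and a fall that needs no PE cannot be told apart.

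Mitosis distributes duplicated chromosomes through a spindle of microtubules. Kinesins and crosslinkers shape the spindle, kinetochores attach chromosomes to it, and a checkpoint holds back the anaphase-promoting complex, APC/C, until every kinetochore is attached. APC/C with its activator then marks securin and cyclin B for destruction, the sister chromatids part, and the midzone of the spindle directs the cleavage furrow. Most of these genes are transcribed late in the cell cycle, in G2 and mitosis, under the MuvB complex with B-MYB and FOXM1. Heart muscle cells stop dividing in the first days after birth in rodents, and the last rounds of division often end without cytokinesis, which leaves cells with several nuclei.

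Each value below is a log2 expression value of the array, on which 1 unit is a factor of 2, and differences are log2 differences ± SE of a limma fit over all 14 arrays. A gene passed when its Benjamini-Hochberg adjusted p over all 13184 genes was under 0.05. Within groups, the lowest correlation between arrays over all probe sets was r = 0.9976. The median SD of these 37 genes within a group was 0.062 and the highest 0.20. No group mean of any of the 37 lay below 6.23, the 30th percentile of gene means, taken here as the limit of dim genes. The labels do not state whether the arrays of each group represent separate cultures. The p-values therefore capture array-to-array spread, and that spread may be technical. In bulk RNA, fewer cells of a type and less RNA per cell cannot be told apart, and neither can more dividing cells and more mRNA in each.

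Of the 37 genes, 37 rose and 0 fell at 48 h of PE against unstimulated cells, with changes from 0.52 to 1.64. Over all genes on the array 21.4% rose and 22.6% fell in that comparison, with a median of 0.01. Kif15, a motor that helps keep the spindle bipolar, changed least, and Spag5, Aurka and Ect2 changed most. A change of at least 2-fold upward was found for 29 of the 37 genes and for 185 genes on the whole array, so these genes were 15.7% of all such genes. For each of the 37 genes, the 3 DMSO arrays at 48 h of PE lay above the other 11 arrays, which held for 7.71% of genes on the array. No gene of the set fell at an unadjusted p under 0.05 either.

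**Figure D1:**
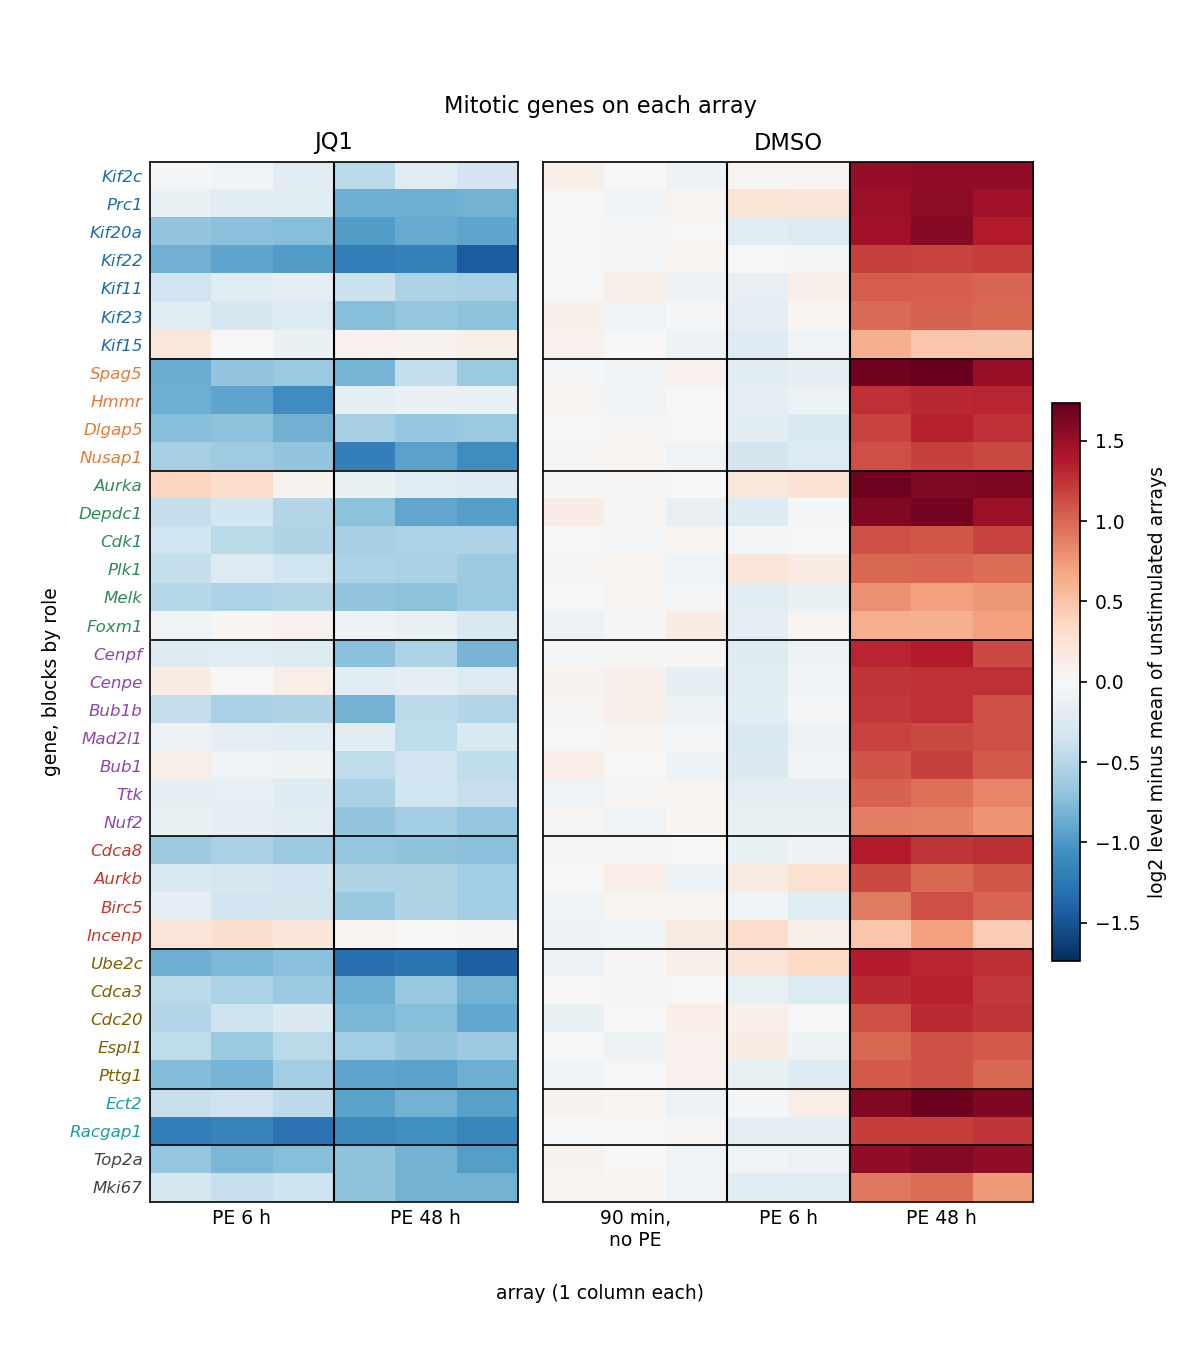
Each row is a gene and each column an array. The colour is the gene's log2 level minus its mean over the 3 unstimulated arrays, with JQ1 arrays on the left (PE 6 h, PE 48 h) and DMSO arrays on the right (90 min without PE, PE 6 h, PE 48 h). Gene names are coloured and blocks drawn by role. All 37 genes are red on the 3 DMSO arrays at 48 h of PE, with a median of 1.15 to 1.19 per array, and most are blue on the 3 arrays of JQ1 with PE at 48 h, with a median of -0.68 to -0.60 per array.

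With JQ1 at 48 h of PE, 0 of the 37 genes rose and 37 fell against DMSO with PE at 48 h, with changes from -2.66 to -0.44. Of all genes 30% rose and 29.6% fell, with a median of 0.02. A fall of at least 2-fold was found for 34 of the 37, against 796 genes on the whole array. The exceptions were Kif15, Incenp and Foxm1. No gene of the set rose at an unadjusted p under 0.05. In the same comparison 10 of 10 fibroblast markers (median -1.29) and 9 of 9 smooth muscle and pericyte markers (median -0.68) fell, with their levels given further on. For 25 of the 37 genes the 3 arrays of JQ1 with PE at 48 h were the lowest of all 14 arrays, which held for 11.8% of genes on the array.

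The increase came late. Against DMSO with PE at 6 h, DMSO with PE at 48 h was higher for all 37 genes and lower for 0, also at an unadjusted p under 0.05, with a median of 1.26 and a range of 0.34 to 1.82, while 16.3% of all genes rose and 18.4% fell. Here 30 of the 123 genes that rose at least 2-fold belonged to the set, or 24.4% of them and 81.1% of the set. Spag5, which holds chromosomes to the spindle, had the largest increase of all 13184 genes in this comparison (1.82 ± 0.10). Depdc1 ranked 4, Kif20a 7 and Top2a 10, and 17 of the 37 were among the 50 genes with the largest increase. This comparison shares its 48 h arrays with the one against unstimulated cells and with the JQ1 comparison at 48 h, so the 3 are not independent.

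The promoters of 4 of these genes are printed to show what the motifs look like in place, not how common they are. They are the measured genes whose promoter window in the RefSeq table is counted from the outermost annotated start of the gene, whose printed stretch overlaps no other annotated gene, and which hold at least 1 of the motifs searched. Bub1 and Melk met the first conditions but held neither motif in the stretch and are not printed. Each line gives the 120 bases before the start, 5′ to 3′ on the gene's strand, on the rat assembly GRCr8. Capitals mark CHR hexamers and CCAAT boxes on either strand. The CHR, bound by MuvB, was searched as TTTGAA or TTCGAA, and the CCAAT box, bound by NF-Y, as CCAAT, on both strands (TTCAAA and ATTGG are their reverse forms, and TTCGAA reads alike on both). The stretches lie at chr5:137255800-137255919 on the minus strand for Cdc20, the activator of APC/C, at chr18:26504302-26504421 on the plus strand for Kif20a, a midzone motor, at chr1:186147538-186147657 on the plus strand for Plk1, a mitotic kinase, and at chr10:84473094-84473213 on the minus strand for Top2a, a topoisomerase of mitotic chromosomes.
Cdc20: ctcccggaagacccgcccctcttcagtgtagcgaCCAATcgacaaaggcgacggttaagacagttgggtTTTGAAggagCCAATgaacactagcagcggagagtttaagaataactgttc
Kif20a: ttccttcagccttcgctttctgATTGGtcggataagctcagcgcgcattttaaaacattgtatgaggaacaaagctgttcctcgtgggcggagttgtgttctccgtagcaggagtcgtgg
Plk1: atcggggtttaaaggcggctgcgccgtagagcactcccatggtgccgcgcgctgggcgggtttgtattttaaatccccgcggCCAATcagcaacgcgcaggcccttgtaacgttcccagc
Top2a: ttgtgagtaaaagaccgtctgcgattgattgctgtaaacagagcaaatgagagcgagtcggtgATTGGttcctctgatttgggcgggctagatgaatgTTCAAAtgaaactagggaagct
Cdc20 and Top2a carry both motifs in the printed stretch, while Kif20a and Plk1 carry a CCAAT box there and no CHR hexamer of these letters. Plk1 has a CHR hexamer just past the printed stretch, beginning at base 7 from the start. In the wider window used below Plk1 is therefore counted with a CHR.

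Over the whole list, 37 of the 43 genes had a promoter window of 250 bases before to 50 after the start, and 32 of these were among the measured genes. A CHR hexamer was found in 28 of these 37 (75.7%), against 19.7% of all 33469 windows in the table and 13.8% of the 11944 windows of genes on the array. A CCAAT box was found in 26 of the 37 (70.3%), against 37.5% and 36.9%, and both motifs in 21 (56.8%), against 7.95% and 5.70%. In 2 windows a CHR match and a CCAAT match overlapped. Positions were counted too: among 33 windows of measured genes of the set, 12 (36.4%) held a CHR hexamer in the last 50 bases before the start, against 1.96% of windows of array genes. For CCAAT, 19 (57.6%) held one between 100 and 50 bases before the start, against 13.9%, and 10 (30.3%) held one in the farthest stretch, 250 to 200 bases before it, against 7.54%. These are matches of letters, not measured binding sites. The shares over the list are per gene and those beside them per window. For 7 of the measured genes the window start was the outermost annotated start of the gene. For the others it lay at a distance from there, from 31 bases for Depdc1 to 41951 for Kif11.

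**Figure D2:**
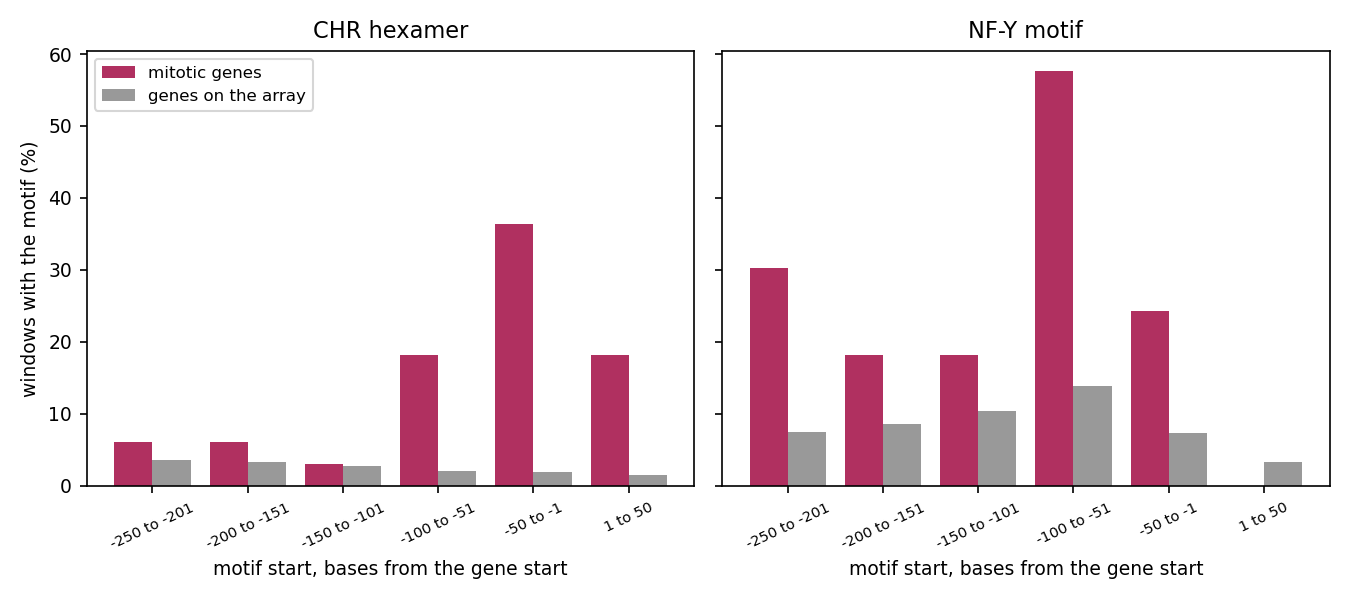
Share of promoter windows (%, y axis) with a motif that starts in each 50-base stretch (x axis, bases from the gene start), for the CHR hexamer on the left and the NF-Y motif, the CCAAT box, on the right. Red bars are 33 windows of measured mitotic genes and grey bars 11944 windows of genes on the array. The CHR share is highest in the last 50 bases before the start (36.4% against 1.96%) and the NF-Y share between 100 and 50 bases before it (57.6% against 13.9%).

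The size of the changes was set beside these motifs. Among 32 measured genes with a window, the 23 with a CHR hexamer had a median JQ1 difference at 48 h of -1.80 (range -2.54 to -0.44) and the 9 without a median of -1.82 (range -2.39 to -1.43). At 48 h of PE the medians were 1.16 with and 1.27 without a CHR. The 24 genes with a CCAAT box had a median JQ1 difference of -1.96 at 48 h, against -1.51 for the 8 without. Their medians at 48 h of PE were 1.24 with and 1.13 without the box. For JQ1 at 6 h the medians were -0.40 with and -0.23 without a CHR. For the CCAAT box they were -0.43 with and -0.0003 without. These are descriptions of few genes, and no difference between the motif groups was tested.

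Among the motors and midzone proteins, all 7 measured genes rose at 48 h of PE (median 1.19) and all 7 were lower with JQ1 at 48 h (median -1.87). Kif20a carries the chromosomal passenger complex to the midzone. Kif20a read 7.64, 7.74 and 7.69 with JQ1 and PE at 48 h, against 10.07, 10.19 and 9.98 with DMSO and PE at 48 h. At 6 h it read 7.92, 7.88 and 7.87 with JQ1 and PE, against 8.40 and 8.37 with DMSO and PE, and unstimulated cells read 8.61, 8.59 and 8.62. The groups at 48 h did not overlap and lay on either side of the unstimulated arrays: Kif20a was 5.25-fold lower with JQ1 than with DMSO at 48 h (-2.39 ± 0.048, adjusted p = 1.2e-12) and had risen 2.78-fold with PE (1.47 ± 0.048).

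Prc1, which bundles antiparallel microtubules at the midzone, read 8.79, 8.78 and 8.81 with JQ1 and PE at 48 h, against 11.12, 11.18 and 11.09 with DMSO and PE at 48 h. Its 6 h values were 9.51, 9.43 and 9.42 with JQ1 and PE, against 9.87 and 9.85 with DMSO and PE, with 9.64, 9.57 and 9.67 unstimulated. The JQ1 difference at 48 h was -2.34 ± 0.040. Kif2c, which depolymerises microtubule ends at kinetochores, had the largest PE change of this role (1.54 ± 0.068): it read 6.62, 6.88 and 6.76 with JQ1 and PE at 48 h, against 8.62, 8.63 and 8.63 with DMSO and PE at 48 h. At 6 h Kif2c read 7.05, 7.03 and 6.89 with JQ1 and PE, against 7.13 and 7.13 with DMSO and PE, and 7.19, 7.08 and 6.99 unstimulated, so both 6 h groups overlapped the unstimulated arrays. Kif15 had the smallest PE change (0.52 ± 0.074, adjusted p = 9.8e-05). It read 7.37, 7.35 and 7.39 with JQ1 and PE at 48 h, against 7.90, 7.77 and 7.76 with DMSO and PE at 48 h, and at 6 h 7.48, 7.28 and 7.17 with JQ1 and PE, against 7.06 and 7.23 with DMSO and PE, with 7.36, 7.30 and 7.20 unstimulated. Its JQ1 and DMSO arrays at 48 h did not overlap, but the JQ1 arrays stayed among the unstimulated and 6 h values. Of the other motors, the pole-separating kinesin Kif11 changed by 1.03 ± 0.079 with PE and -1.52 ± 0.079 with JQ1 at 48 h, and Kif23, the motor of centralspindlin, by 1.00 ± 0.053 and -1.71 ± 0.053. The chromosome-arm kinesin Kif22 rose by 1.19 ± 0.062 with PE and was 5.50-fold lower with JQ1 (-2.46 ± 0.062).

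Among the spindle assembly factors, all 4 measured genes rose at 48 h of PE (median 1.28) and all 4 were lower with JQ1 at 48 h (median -2.06). Spag5, also called astrin, read 6.86, 7.24 and 7.03 with JQ1 and PE at 48 h, against 9.35, 9.41 and 9.18 with DMSO and PE at 48 h. At 6 h Spag5 read 6.81, 6.98 and 7.03 with JQ1 and PE, against 7.48 and 7.501 with DMSO and PE, and 7.64, 7.62 and 7.74 unstimulated. Its PE change was 1.64 ± 0.091, and its JQ1 difference at 48 h -2.27 ± 0.091 (adjusted p = 3.3e-10), although the JQ1 values at 48 h overlapped those of JQ1 at 6 h. Nusap1, which bundles spindle microtubules near chromatin, had the smallest PE change of this role, 1.16 ± 0.058. It read 7.27, 7.52 and 7.38 with JQ1 and PE at 48 h, against 9.58, 9.64 and 9.61 with DMSO and PE at 48 h, and at 6 h 7.88, 7.84 and 7.77 with JQ1 and PE, against 8.14 and 8.22 with DMSO and PE, with 8.47, 8.49 and 8.40 unstimulated. For Nusap1 both early groups were already below the unstimulated arrays, the JQ1 group more so.

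Hmmr, the hyaluronan-mediated motility receptor that also binds spindle microtubules, behaved otherwise in time. It read 7.39, 7.33 and 7.16 with JQ1 and PE at 6 h and 8.07, 8.13 and 8.13 with JQ1 and PE at 48 h. With DMSO it read 8.28, 8.19 and 8.25 at 90 min without PE, 8.08 and 8.13 with PE at 6 h and 9.51, 9.55 and 9.56 with PE at 48 h. Hmmr was thus lowest in the early JQ1 arrays, and within JQ1 the 48 h arrays were higher than the 6 h arrays (0.81 ± 0.053, adjusted p = 4.8e-08). The kinetochore-fibre stabiliser Dlgap5 changed by 1.27 ± 0.049 with PE and by -1.89 ± 0.049 with JQ1 at 48 h.

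The group of mitotic kinases, with the transcription factor Foxm1 and with Depdc1, had 6 measured genes, and all 6 rose at 48 h of PE (median 1.06) and all 6 were lower with JQ1 (median -1.63). Cdk1, the kinase that drives entry into mitosis, read 9.27, 9.30 and 9.31 with JQ1 and PE at 48 h, against 10.98, 10.93 and 11.02 with DMSO and PE at 48 h. Its 6 h values were 9.51, 9.39 and 9.33 with JQ1 and PE, against 9.83 and 9.85 with DMSO and PE, and 9.85, 9.83 and 9.89 unstimulated. Cdk1 did not pass at 6 h of PE (-0.02 ± 0.051, adjusted p = 0.85), but was 2.18-fold higher at 48 h of PE (1.12 ± 0.046), and 3.20-fold lower with JQ1 at 48 h (-1.68 ± 0.046). Plk1, which acts at centrosomes, kinetochores and the midzone, read 7.42, 7.40 and 7.34 with JQ1 and PE at 48 h, against 8.96, 8.98 and 8.94 with DMSO and PE at 48 h. At 6 h it read 7.56, 7.73 and 7.62 with JQ1 and PE, against 8.18 and 8.11 with DMSO and PE, with 7.99, 8.02 and 7.90 unstimulated. Plk1 was thus slightly higher in DMSO with PE at 6 h than in unstimulated cells (0.18 ± 0.054, adjusted p = 0.022).

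Aurka, the centrosomal Aurora kinase, had the largest PE change of this role (1.64 ± 0.067, or 3.11-fold). It read 7.65, 7.54 and 7.53 with JQ1 and PE at 48 h, against 9.44, 9.36 and 9.38 with DMSO and PE at 48 h, and at 6 h 8.13, 8.07 and 7.82 with JQ1 and PE, against 7.94 and 8.01 with DMSO and PE, with 7.74, 7.78 and 7.76 unstimulated. The 6 h groups of Aurka overlapped, and JQ1 made no difference past the threshold there (0.03 ± 0.075, adjusted p = 0.78), in contrast to the separate groups at 48 h (-1.82 ± 0.067). Foxm1, which activates many genes of this set, had the smallest PE change, 0.66 ± 0.071. Its values were 7.01, 6.97 and 6.82 with JQ1 and PE at 48 h, against 7.73, 7.72 and 7.81 with DMSO and PE at 48 h. At 6 h Foxm1 read 7.03, 7.13 and 7.17 with JQ1 and PE, against 6.94 and 7.13 with DMSO and PE, and 6.99, 7.07 and 7.22 unstimulated, all within a narrow band. The JQ1 difference of Foxm1 at 48 h was -0.82 ± 0.071 (adjusted p = 4.6e-07), the smallest but 2 of the set. Melk changed by 0.76 ± 0.040 with PE and -1.43 ± 0.040 with JQ1 at 48 h, and Depdc1 by 1.59 ± 0.086 and -2.45 ± 0.086.

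**Figure D3:**
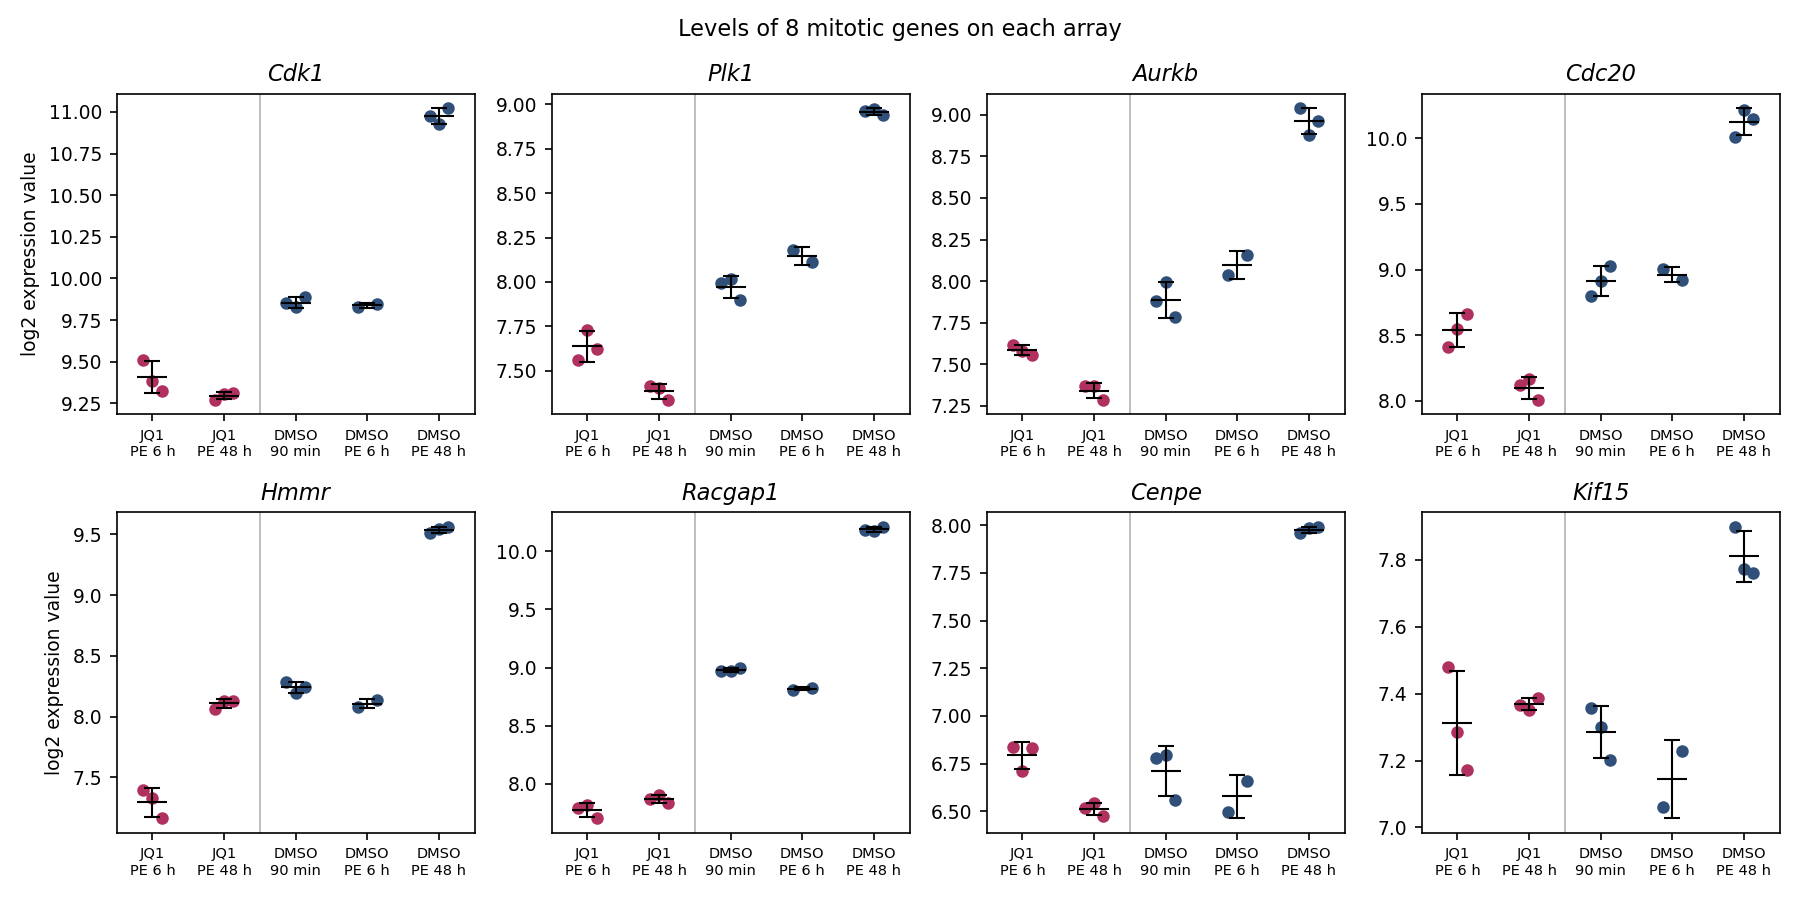
Log2 expression value (y axis, scaled to each gene) of 8 genes on every array (points), by group on the x axis with JQ1 groups left of the line and DMSO groups right of it. Horizontal bars are group means and error bars the SD (n = 3, and 2 for DMSO with PE at 6 h). For all 8 the highest arrays are those of DMSO with PE at 48 h. Hmmr is lowest with JQ1 and PE at 6 h, while the other 4 groups of Kif15 lie close together.

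Among kinetochore and checkpoint genes, all 7 measured rose at 48 h of PE (median 1.14, range 0.85 to 1.28) and all 7 were lower with JQ1 at 48 h (median -1.50, range -1.98 to -1.38). Cenpf, a large protein of the outer kinetochore, had the largest PE change. It read 7.36, 7.53 and 7.27 with JQ1 and PE at 48 h, against 9.41, 9.46 and 9.23 with DMSO and PE at 48 h, and at 6 h 7.86, 7.87 and 7.85 with JQ1 and PE, against 7.86 and 7.99 with DMSO and PE, with 8.04, 8.10 and 8.10 unstimulated. The JQ1 arrays of Cenpf at 48 h were the lowest of the 14, and the 6 h groups overlapped each other. Nuf2, a subunit of the NDC80 complex that grips microtubules, had the smallest PE change, 0.85 ± 0.042, and read 8.18, 8.26 and 8.19 with JQ1 and PE at 48 h, against 9.75, 9.73 and 9.64 with DMSO and PE at 48 h. Its 6 h values were 8.75, 8.70 and 8.67 with JQ1 and PE, against 8.72 and 8.75 with DMSO and PE, and 8.88, 8.80 and 8.89 unstimulated.

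Of the checkpoint genes, the kinase gene Bub1 changed by 1.11 ± 0.072 with PE and -1.52 ± 0.072 with JQ1 at 48 h. Bub1b, which encodes the inhibitor of APC/C known as BubR1, changed by 1.20 ± 0.090 and -1.80 ± 0.090, and Mad2l1, which captures Cdc20, by 1.14 ± 0.062 and -1.44 ± 0.062. The kinase gene Ttk, which recruits the checkpoint to kinetochores, changed by 0.94 ± 0.058 and -1.38 ± 0.058. Cenpe, a kinesin that moves chromosomes to the spindle equator, changed by 1.26 ± 0.064 with PE and by -1.47 ± 0.064 with JQ1.

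The chromosomal passenger complex corrects faulty attachments at centromeres and later works at the midzone, and all 4 of its subunits were measured. All 4 rose at 48 h of PE (median 1.04) and all 4 were lower with JQ1 at 48 h (median -1.61). Aurkb, the kinase of the complex, read 7.37, 7.37 and 7.29 with JQ1 and PE at 48 h, against 9.04, 8.88 and 8.96 with DMSO and PE at 48 h. At 6 h it read 7.62, 7.58 and 7.56 with JQ1 and PE, against 8.04 and 8.15 with DMSO and PE, with 7.88, 7.997 and 7.78 unstimulated. Aurkb was 3.07-fold lower with JQ1 at 48 h (-1.62 ± 0.058) and already lower at 6 h (-0.51 ± 0.065, adjusted p = 2.2e-05).

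Cdca8, also called borealin, had the largest PE change of the complex, 1.30 ± 0.040. Cdca8 read 7.41, 7.38 and 7.36 with JQ1 and PE at 48 h, against 9.46, 9.32 and 9.36 with DMSO and PE at 48 h, and at 6 h 7.45, 7.51 and 7.44 with JQ1 and PE, against 7.97 and 7.98 with DMSO and PE, with 8.05, 8.10 and 8.09 unstimulated, so the JQ1 arrays of both times formed a low group. Incenp, the scaffold of the complex, differed from its partners in size. It read 7.07, 7.02 and 6.99 with JQ1 and PE at 48 h, against 7.501, 7.74 and 7.46 with DMSO and PE at 48 h, and at 6 h 7.24, 7.30 and 7.24 with JQ1 and PE, against 7.34 and 7.11 with DMSO and PE, with 6.94, 6.95 and 7.18 unstimulated. The PE change of Incenp was 0.54 ± 0.085 and the JQ1 difference at 48 h -0.54 ± 0.085, each past the threshold (adjusted p = 2.0e-04 and 9.8e-05). Birc5, or survivin, which targets the complex to centromeres, changed by 1.01 ± 0.068 with PE and -1.61 ± 0.068 with JQ1. Incenp also had 2 dimmer probe sets, described further on.

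The ubiquitin machinery of metaphase and mitotic entry had 5 measured genes, and all 5 rose at 48 h of PE (median 1.21, range 1.05 to 1.33) and all 5 were lower with JQ1 at 48 h (median -2.03, range -2.66 to -1.70). Ube2c, the ubiquitin-conjugating enzyme of APC/C, had the largest PE change of this role and the largest JQ1 difference of the whole set. It read 8.39, 8.43 and 8.28 with JQ1 and PE at 48 h, against 11.07, 11.03 and 10.99 with DMSO and PE at 48 h. At 6 h Ube2c read 8.85, 8.93 and 8.98 with JQ1 and PE, against 9.93 and 10.05 with DMSO and PE, with 9.60, 9.72 and 9.79 unstimulated. Ube2c was 6.33-fold lower with JQ1 at 48 h (-2.66 ± 0.060) and 2.10-fold lower at 6 h (-1.07 ± 0.067), with no overlap of the groups at either time.

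Cdc20, whose promoter is printed above, read 8.12, 8.17 and 8.01 with JQ1 and PE at 48 h, against 10.01, 10.22 and 10.15 with DMSO and PE at 48 h. At 6 h it read 8.41, 8.55 and 8.66 with JQ1 and PE, against 9.002 and 8.92 with DMSO and PE, and 8.80, 8.92 and 9.03 unstimulated. The levels of Cdc20 in DMSO at 6 h stood within the unstimulated range. Pttg1, or securin, which holds separase inactive until anaphase, had the smallest PE change of this role, 1.05 ± 0.056. It read 7.91, 7.89 and 7.97 with JQ1 and PE at 48 h, against 9.88, 9.93 and 9.81 with DMSO and PE at 48 h, and at 6 h 8.07, 8.02 and 8.21 with JQ1 and PE, against 8.69 and 8.59 with DMSO and PE, with 8.76, 8.81 and 8.89 unstimulated. Its partner Espl1, separase itself, changed by 1.06 ± 0.069 with PE and -1.70 ± 0.069 with JQ1 at 48 h. Cdca3, part of the ubiquitin ligase that lets cells enter mitosis, changed by 1.29 ± 0.059 and -2.07 ± 0.059.

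Both measured cytokinesis genes rose at 48 h of PE (median 1.43) and were lower with JQ1 (median -2.43), as were both genes of mitotic chromosomes (medians 1.22 and -2.02). Ect2 acts at the cleavage furrow, and Racgap1 joins Kif23 in centralspindlin and binds Ect2. Ect2 read 8.06, 8.17 and 8.04 with JQ1 and PE at 48 h, against 10.59, 10.69 and 10.61 with DMSO and PE at 48 h. At 6 h Ect2 read 8.58, 8.63 and 8.53 with JQ1 and PE, against 8.97 and 9.10 with DMSO and PE, with 9.05, 9.02 and 8.89 unstimulated. It rose 3.12-fold with PE (1.64 ± 0.055) and was 5.82-fold lower with JQ1 at 48 h (-2.54 ± 0.055). Racgap1 read 7.87, 7.91 and 7.83 with JQ1 and PE at 48 h, against 10.18, 10.17 and 10.21 with DMSO and PE at 48 h, and at 6 h 7.79, 7.82 and 7.70 with JQ1 and PE, against 8.81 and 8.83 with DMSO and PE, with 8.97, 8.97 and 8.997 unstimulated. For Racgap1 the fall with JQ1 at 6 h (-1.05 ± 0.042, adjusted p = 8.8e-10) brought it to about the level it had with JQ1 at 48 h.

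Top2a, which untangles sister chromatids and compacts them, read 8.21, 8.09 and 7.95 with JQ1 and PE at 48 h, against 10.45, 10.50 and 10.44 with DMSO and PE at 48 h. Its 6 h values were 8.24, 8.11 and 8.17 with JQ1 and PE, against 8.83 and 8.81 with DMSO and PE, with 8.98, 8.91 and 8.84 unstimulated. Top2a rose by 1.56 ± 0.060 with PE and differed by -2.38 ± 0.060 with JQ1 at 48 h. Mki67, which coats mitotic chromosomes and is the usual marker of proliferating cells, changed less: it read 8.03, 7.89 and 7.89 with JQ1 and PE at 48 h, against 9.63, 9.69 and 9.47 with DMSO and PE at 48 h. At 6 h Mki67 read 8.42, 8.31 and 8.36 with JQ1 and PE, against 8.53 and 8.50 with DMSO and PE, and 8.75, 8.76 and 8.66 unstimulated. Its PE change was 0.88 ± 0.060 and its JQ1 difference at 48 h -1.66 ± 0.060, with no overlap of the groups at 48 h.

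JQ1 at 6 h of PE moved part of the set. Against DMSO with PE at 6 h, 1 gene rose and 24 fell, while 12 did not pass, with a median of -0.37. Over all genes 25.5% rose and 28.8% fell, with a median of 0.00. The largest falls were Ube2c (-1.07 ± 0.067), Racgap1 (-1.05 ± 0.042) and Kif22 (-0.89 ± 0.069), followed by Hmmr (-0.81 ± 0.060). In the same comparison 8 of 10 fibroblast markers (median -0.39) and 8 of 9 smooth muscle and pericyte markers (median -0.71) fell, and their part in the result was not tested. All 5 genes of the ubiquitin machinery, all 4 spindle assembly factors and both cytokinesis genes fell. Of the 7 kinetochore and checkpoint genes, 1 fell, Bub1b (-0.40 ± 0.10, adjusted p = 0.0046), and 1 rose, Cenpe (0.22 ± 0.071, adjusted p = 0.022), with a median of -0.02. Bub1, Mad2l1, Ttk, Nuf2 and Cenpf lay between -0.07 ± 0.078 and 0.13 ± 0.081 and did not pass. Cenpe read 6.84, 6.71 and 6.83 with JQ1 and PE, against 6.50 and 6.66 with DMSO and PE at 6 h, and the call ended without DMSO replicate 1 (adjusted p = 0.22), without replicate 1 of JQ1 with PE at 6 h (adjusted p = 0.065) and without its replicate 3 (adjusted p = 0.062).

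The falls at 6 h depended in part on how arrays were scaled. With every array centred on its own median, the median of all genes moved to 0.10 at 6 h and to 0.13 at 48 h of JQ1 against DMSO, and the share of passing genes that rose was 61.9% and 65.2%, against 47.0% and 50.4% in the values as deposited. Under that scaling 3 genes of the set rose and 21 fell at 6 h (median -0.27), and 0 rose and 37 fell at 48 h (median -1.68). Quantile normalization of the gene values gave 5 raised and 21 lowered at 6 h, and 0 and 37 at 48 h.

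The difference between JQ1 and DMSO was larger at 48 h than at 6 h. Between these times the median change of the set was 1.26 in DMSO and -0.24 in JQ1. The difference of the JQ1 effects, 48 h minus 6 h, was negative and past the threshold for 37 of 37 genes, with a median of -1.49 and a range of -2.16 to -0.58, and 0 were positive, also at an unadjusted p under 0.05. Of all genes 20.4% had a positive and 18.3% a negative difference past the threshold. Depdc1 (-2.16 ± 0.13), Ect2 (-2.09 ± 0.083) and Prc1 (-1.94 ± 0.059) had the largest differences, and Incenp (-0.58 ± 0.13), Kif15 (-0.61 ± 0.11) and Hmmr (-0.62 ± 0.080) the smallest. Of the markers, 6 of 10 for fibroblasts (median -0.79) and 5 of 9 for smooth muscle and pericytes (median -0.40) had a negative difference past the threshold, and 1 and 2 a positive one. Their part in the result was not tested. This difference rests on the same arrays as the JQ1 comparisons at both times, so it is no separate evidence of either.

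**Figure D4:**
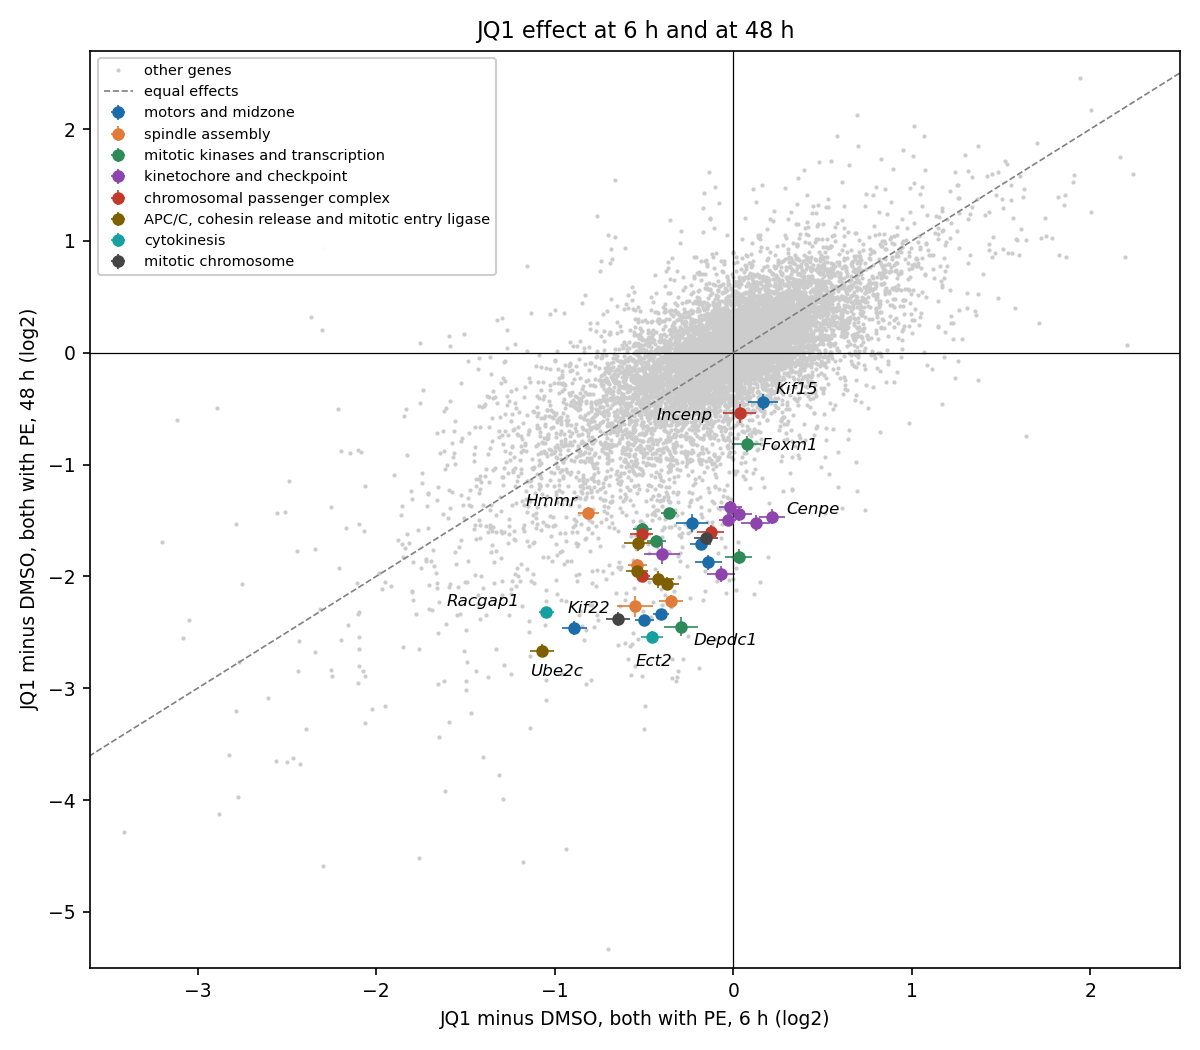
Log2 difference of JQ1 minus DMSO, both with PE, at 6 h (x axis) and at 48 h (y axis), with SE bars for the 37 mitotic genes coloured by role, all other genes as small grey points and a dashed line of equal effects. All 37 lie below the line and below 0 on the y axis. Ube2c, Racgap1, Kif22 and Hmmr lie farthest left of the set. Most kinetochore and checkpoint genes lie near 0 on the x axis, apart from Bub1b at -0.40 and Cenpe at 0.22.

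Within the JQ1 arm, the set as a whole did not rise from 6 h to 48 h of PE as it did in DMSO. Against JQ1 with PE at 6 h, JQ1 with PE at 48 h was higher for 3 genes and lower for 25, with a median of -0.24, while 27.2% of all genes rose and 26.4% fell. Hmmr rose (0.81 ± 0.053), and Dlgap5 (0.13 ± 0.049, adjusted p = 0.036) and Racgap1 (0.10 ± 0.037, adjusted p = 0.04) passed by little. Among markers, 8 of 10 for fibroblasts fell and 1 rose (median -0.97), and 7 of 9 for smooth muscle and pericytes fell and 1 rose (median -0.53), and their part in the result was not tested. The mean of its probe sets turned the change of Racgap1 to -0.02. The largest falls were Prc1 (-0.66 ± 0.040), Ube2c (-0.55 ± 0.060) and Nuf2 (-0.50 ± 0.042).

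After 48 h the set stood below the unstimulated level with JQ1. Against unstimulated cells, JQ1 with PE at 48 h had 0 genes higher and 34 lower, with a median of -0.64, where 31.6% of all genes were higher and 29.2% lower. At an unadjusted p under 0.05, 0 were higher and 35 lower. The largest differences were Ube2c (-1.34 ± 0.060), Kif22 (-1.27 ± 0.062) and Racgap1 (-1.11 ± 0.037). The 3 genes that did not pass were Kif15 (0.08 ± 0.074), Foxm1 (-0.16 ± 0.071) and Incenp (0.00 ± 0.085). With every array centred on its median, the median of all genes moved to 0.14, 66.7% of passing genes were higher, against 52.0% as deposited, and 1 gene of the set was higher and 31 lower. The fall of Cenpe (-0.20 ± 0.064) turned to 0.0034 on quantile normalization of the gene values. Against unstimulated cells, 10 of 10 fibroblast markers (median -1.43) and 8 of 9 smooth muscle and pericyte markers (median -0.48) were lower too, with 0 higher in either list. Their part in the result was not tested.

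**Figure D5:**
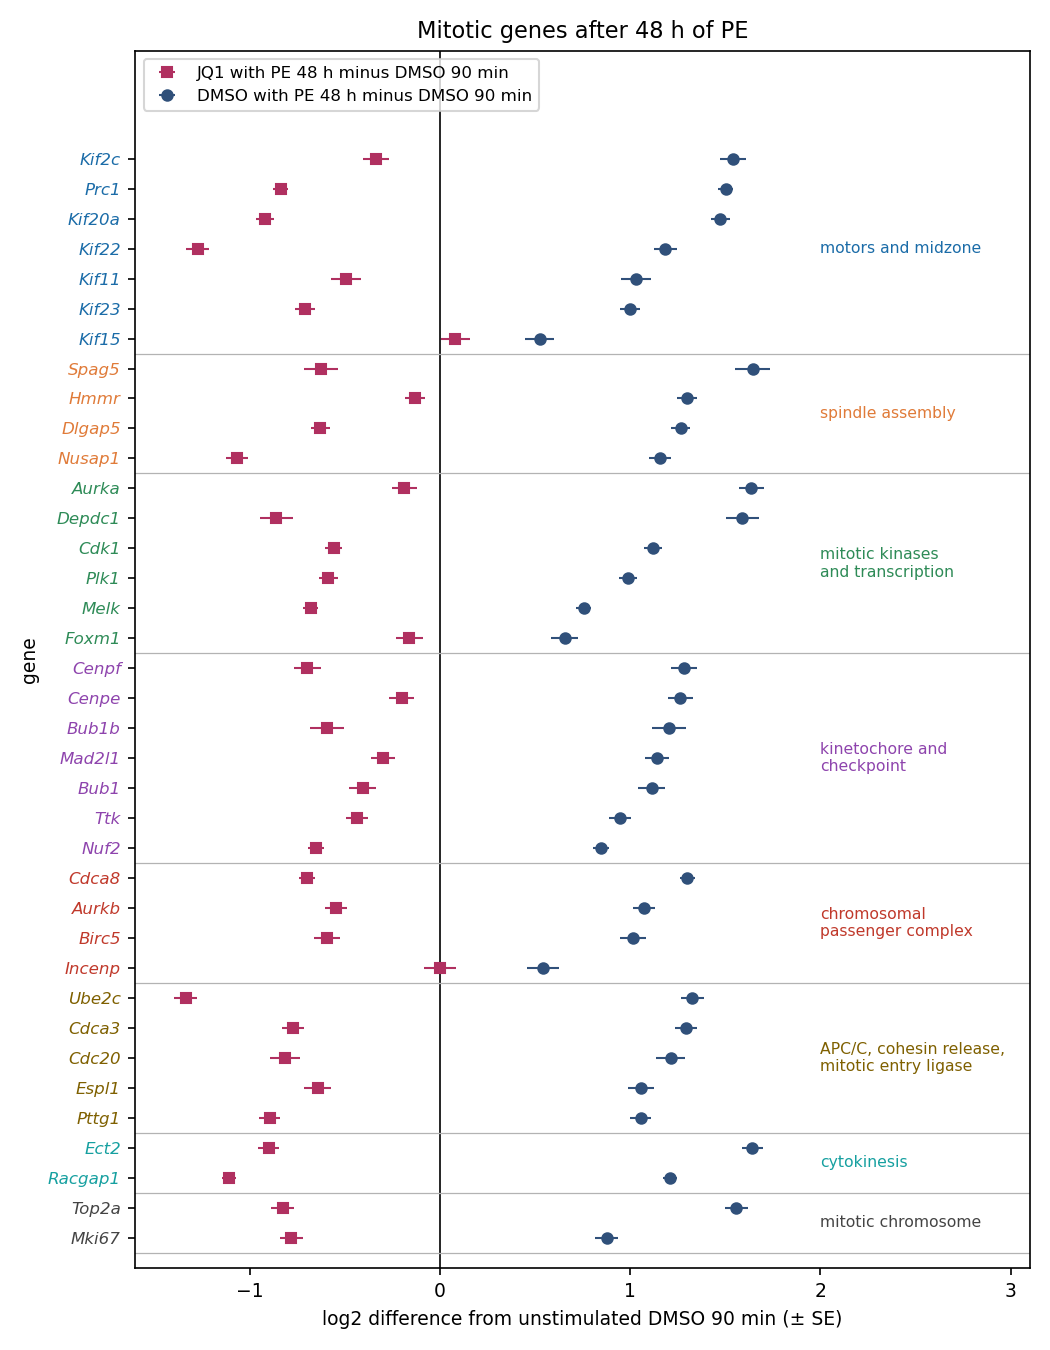
Log2 difference ± SE from unstimulated DMSO at 90 min (x axis) for each of the 37 genes (y axis, in blocks by role). Squares are JQ1 with PE at 48 h and circles DMSO with PE at 48 h, each a mean of 3 arrays. The circles run from 0.52 to 1.64 and the squares from -1.34 to 0.08, and no gene's square reaches its circle.

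The set differed little at 6 h of PE. Against unstimulated cells 5 genes rose and 8 fell, with a median of -0.12 and a range of -0.27 to 0.29, and 18.3% of all genes rose and 18.9% fell, so these counts are near the background. The rises were Ube2c (0.29 ± 0.067), Prc1 (0.23 ± 0.044), Aurka (0.22 ± 0.075), Aurkb (0.21 ± 0.065) and Plk1 (0.18 ± 0.054). The largest falls were Nusap1 (-0.27 ± 0.065), Dlgap5 (-0.23 ± 0.055) and Kif20a (-0.22 ± 0.054). With only the arrays of these 2 groups in the fit, 3 rose and 4 fell. Without replicate 1 of the PE arrays, the counts were 3 and 3, and without its replicate 2, 3 and 5. Without replicate 1, 2 or 3 of the unstimulated arrays, 3, 4 and 3 rose and 6, 5 and 7 fell.

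Genes of the same machinery outside the set moved likewise at 48 h. Of 26 other kinetochore and centromere genes, 22 rose and 1 fell at 48 h of PE (median 0.65), and 3 were higher and 21 lower with JQ1 at 48 h (median -0.82). Ska1 (1.51 ± 0.070), Cenpw (1.35 ± 0.085) and Spc25 (1.19 ± 0.040), parts of the microtubule-binding outer kinetochore or of the centromere, had the largest PE changes. With JQ1 at 48 h the same 3 names had the largest falls: Ska1 differed by -2.13 ± 0.070, Cenpw by -1.93 ± 0.085 and Spc25 by -1.66 ± 0.040. Mad1l1, the partner of Mad2l1 at kinetochores, went the other way, with -0.18 ± 0.052 for PE and 0.71 ± 0.052 for JQ1, and Mis12 (0.20 ± 0.056) and Bub3 (0.13 ± 0.041) were also higher with JQ1.

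Of 31 other spindle, condensin and mitotic regulator genes, 29 rose and 0 fell at 48 h of PE (median 0.84), and 0 were higher and 30 lower with JQ1 at 48 h (median -1.33). The kinase gene Pbk (1.51 ± 0.055), the kinesin gene Kif20b (1.51 ± 0.088) and Arhgap11a (1.41 ± 0.060) had the largest PE changes. The largest falls with JQ1 at 48 h were Arhgap11a (-2.61 ± 0.060), Pbk (-2.39 ± 0.055) and Cit (-2.34 ± 0.085), the citron kinase of cytokinesis. Already at 6 h JQ1 lowered 19 of the 31 and raised 2, with Cit at -1.53 ± 0.095 and Fam83d at 0.59 ± 0.059. The cohesion gene Cdca5 passed in neither comparison at 48 h (-0.23 ± 0.094 with PE and 0.14 ± 0.094 with JQ1).

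The regulators of cell cycle transcription were mixed. Of 12 genes of the E2F, RB and MuvB families, 7 rose and 3 fell at 48 h of PE, and 4 were higher and 6 lower with JQ1 at 48 h (median -0.14). Others of these families, among them Lin9, Lin52 and E2f4, were not analysed here. E2f8, an atypical repressor E2F, rose with PE (1.18 ± 0.069) and was lower with JQ1 at 48 h (-1.87 ± 0.069), as was Rbl1, or p107 (1.05 ± 0.078 and -1.05 ± 0.078). Mybl2, the gene of B-MYB, changed less in the same directions (0.21 ± 0.052 and -0.35 ± 0.052). Rbl2, or p130, which holds these genes silent in resting cells, fell with PE (-0.50 ± 0.056) and was slightly higher with JQ1 (0.17 ± 0.056). Rb1 fell with PE (-0.24 ± 0.056) and was higher with JQ1 (0.62 ± 0.056), and E2f5 rose with PE (0.86 ± 0.040) and was higher still with JQ1 (0.73 ± 0.040). A list of mostly transport kinesins was set beside these. It also holds their accessory subunits Klc1, Klc2, Klc4 and Kifap3, and Kif2a, a microtubule depolymerase related to Kif2c that also works at spindle poles. Of the 17 genes, 6 rose and 4 fell at 48 h of PE (median 0.03), and 6 were higher and 4 lower with JQ1 at 48 h (median 0.06). Kif2a was among the 6 that rose (0.29 ± 0.042). Kif5b had the largest PE change in the list (1.60 ± 0.046), and Kif16b (-1.06 ± 0.053) and Kif3a (1.01 ± 0.051) the largest JQ1 differences in either direction.

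The cells behind these values are not known from the arrays. All 11 cardiomyocyte markers were above the dim limit in every group, with a summed linear level of 168493 to 173021 with JQ1 and PE at 48 h, 181259 to 183436 with DMSO and PE at 48 h, and 167449 to 170155 unstimulated. This sum is carried by the brightest probe sets, near the top of the value range. With JQ1 at 48 h, 4 of the 11 rose and 5 fell, with Tnnt2 at 0.23 ± 0.034, Myh7 at -0.39 ± 0.040 and Tnni3, the cardiac troponin I gene, at -1.55 ± 0.036. At 48 h of PE 4 rose and 4 fell, and with JQ1 at 6 h 2 rose and 4 fell. None of the 10 fibroblast markers was dim in every group. Their summed level was 22920 to 23960 with JQ1 and PE at 48 h, 44821 to 45800 with DMSO and PE at 48 h, and 53479 to 54758 unstimulated. With JQ1 at 48 h, 10 of 10 fibroblast markers fell (median -1.29), and at 48 h of PE 0 rose and 6 fell (median -0.20). The fibroblast markers therefore moved with the mitotic genes in that JQ1 comparison and opposite to them in the PE comparison, and their part in the result was not tested.

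Of 9 smooth muscle and pericyte markers, 9 fell with JQ1 at 48 h (median -0.68), and 6 rose and 2 fell at 48 h of PE. Most of these markers therefore moved in the same direction as the mitotic genes in both comparisons. Their summed level was 10765 to 11760 with JQ1 and PE at 48 h, 16120 to 16352 with DMSO and PE at 48 h, and 14620 to 15412 unstimulated, and Rgs5 alone was dim in every group. Of 9 endothelial markers, Pecam1, Tie1, Vwf, Flt1, Emcn and Erg were dim in every group, and 6 of the 9 fell with JQ1 at 48 h. Their summed level was 386.5 to 396.5 with JQ1 and PE at 48 h, 545.9 to 570.9 with DMSO and PE at 48 h, and 661.3 to 683.8 unstimulated. Of 9 macrophage and leukocyte markers, Ptprc, Cd163 and Mrc1 were dim, and 1 fell with JQ1 at 48 h and 5 fell at 48 h of PE. Their summed level was 526.0 to 575.0 with JQ1 and PE at 48 h, 586.1 to 599.1 with DMSO and PE at 48 h, and 702.7 to 755.5 unstimulated. The part of these cell types in the mitotic gene changes was not tested.

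Other probe sets of the same genes gave a check within the array. Of the set, 12 genes had 17 further probe sets, 12 of these dim. At 48 h of PE 15 of the 17 rose past the threshold, like the brightest, and 2 had the same sign without passing. With JQ1 at 48 h, 14 fell past the threshold and 3 had the same sign without passing. Those that did not pass were dim: for Incenp both further probe sets in the JQ1 comparison (-0.25 and -0.08) and 1 in the PE comparison (0.05), 1 of Kif23 with PE (0.30), and 1 of Cdc20 with JQ1 (-0.26). At 6 h of JQ1 they were less alike: 6 had the same sign and passed, 9 had it without passing, 1 was opposite without passing and 1 was opposite and passed. The last was a dim probe set of Mad2l1 at -0.41, while another read 0.22 and the brightest 0.03. For JQ1 with PE at 48 h against unstimulated cells, 9 of the 17 passed with the same sign. Of the rest, 6 had that sign and 2 were opposite, none passing. From 6 h to 48 h in JQ1, 5 passed with the same sign, 7 had it without passing and 5 were opposite without passing. At 6 h of PE against unstimulated cells 0 passed, with 10 of the same sign and 7 opposite.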

How the data were processed

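RNA of 14 samples was measured on a rat Affymetrix array. The deposited table holds the authors' log2 expression value for each of 20223 probe sets, from 2.71 to 14.70. The array medians of 7.28 to 7.43 lie close together, from which normalization between arrays is inferred; summarization, background correction and normalization method are not given in the sources used here. limma is named, without its role, per the submitters' processing notes. Of the probe sets, 18510 had 1 gene symbol, 305 had several and were left out, and 6 controls were dropped. Symbols were updated through gene IDs (18461 matched) or an accession (1), and 48 were left with the symbol of the array design. The probe set with the highest mean stood for each of 13184 genes, 3797 of which had several.

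A limma 3.58.1 fit in R 4.3.3 (lmFit, eBayes) gave each group a mean over 14 arrays, with two-sided tests adjusted by Benjamini-Hochberg over all genes at 0.05. The mitotic genes and the lists of other genes were chosen with earlier results of these data known. Array values are given for the genes with the largest and smallest change at 48 h of PE in each role and for a panel of usual markers. Those of Hmmr and Cenpe were added after their values were seen. Other genes are named by size of change, up to 3 in each direction. Promoter windows are RefSeq's, on GRCr8. Alternatives were other scalings, probe set rules, filters, variance priors, arrays in the fit and the replicate number as a block. Array number limits the precision.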

Additional observations from a re-analysis of the deposited data

Results flagged for a closer look

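For all 37 measured genes, the effect of JQ1 against DMSO at 48 h of PE differed from its effect at 6 h by a direct test of that difference (limma, adjusted over all genes), and all are listed because they passed it. Each value is the log2 effect at 48 h minus that at 6 h. A negative value means that JQ1 lay lower relative to DMSO at 48 h. Such a value can come from a rise in DMSO as well as from a fall in JQ1. Between 6 h and 48 h the median change of the set was 1.26 in DMSO and -0.24 in JQ1. Among the motors and midzone proteins the difference was -1.90 for Kif20a, -1.94 for Prc1, -1.29 for Kif11, -1.53 for Kif23, -1.73 for Kif2c, -0.61 for Kif15 and -1.57 for Kif22. Among the spindle assembly factors it was -1.72 for Spag5, -1.87 for Nusap1, -0.62 for Hmmr and -1.36 for Dlgap5. For the kinases, Foxm1 and Depdc1 it was -1.25 for Cdk1, -1.07 for Plk1, -1.85 for Aurka, -1.07 for Melk, -0.89 for Foxm1 and -2.16 for Depdc1. Kinetochore and checkpoint genes stood at -1.64 for Bub1, -1.40 for Bub1b, -1.47 for Mad2l1, -1.36 for Ttk, -1.47 for Nuf2, -1.68 for Cenpe and -1.91 for Cenpf. The passenger complex had -1.11 for Aurkb, -1.48 for Birc5, -0.58 for Incenp and -1.49 for Cdca8. In the ubiquitin machinery it was -1.61 for Cdc20, -1.59 for Ube2c, -1.17 for Espl1, -1.41 for Pttg1 and -1.70 for Cdca3. The cytokinesis genes had -1.27 for Racgap1 and -2.09 for Ect2. The genes of mitotic chromosomes had -1.74 for Top2a and -1.50 for Mki67. Over all genes on the array, 20.4% had a positive and 18.3% a negative difference past the threshold.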

How the results depend on the processing

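The values were refitted with quantile normalization of the gene values, with arrays centred on their median and with the mean of a gene's probe sets. Further refits left out dim genes, used a variance trend, held only the groups compared or took the replicate number as a block. Each array was also left out in turn. The rise of 37 genes at 48 h of PE and the fall of 37 with JQ1 at 48 h kept their counts without any single array. Without single arrays, 36 to 37 genes rose between 6 h and 48 h in DMSO, 20 to 24 fell with JQ1 at 6 h and 31 to 34 were below the unstimulated level with JQ1 at 48 h. Small counts moved: at 6 h of PE, 3 rose and 4 fell with only the groups compared, and 3 to 4 rose and 3 to 7 fell without single arrays. The count raised by JQ1 at 6 h was 5 with quantile normalization, 3 with centred arrays, 0 with only the groups compared and 0 to 1 without single arrays. With JQ1 at 48 h, 1 gene was above the unstimulated level under quantile normalization and 1 with centred arrays. Between 6 h and 48 h in JQ1, 1 gene rose with the variance trend, 1 with the replicate block and 1 to 3 without single arrays. Cenpe with JQ1 and PE at 48 h against unstimulated cells turned to 0.0034 with quantile normalization. Racgap1 between 6 h and 48 h in JQ1 turned to -0.0225 with the mean of probe sets. A value counted as turned if its sign changed and it passed in the main or the other fit. Of the single values of the 37 genes under these settings, 3761 neither turned nor changed side of the threshold. A further 119 no longer passed, 40 newly passed and 2 turned. The cause was not tested. Whether equal replicate numbers pair the arrays is not settled. In 26 pairs of arrays with equal numbers the deviations from group means correlated at -0.27 to 0.18, over 0.1 in 3. Arrays with unequal numbers were not correlated for reference, so this cannot exclude pairing. The replicate block gave 23 genes lowered by JQ1 at 6 h and 33 below the unstimulated level with JQ1 at 48 h. The number of arrays, with 2 in DMSO with PE at 6 h, and the deposited normalization limit what can be resolved.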
